A study of Mus musculus with 2 samples.

Results

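Oxidative phosphorylation genes were taken by symbol: the nuclear Nduf, Sdh, Uqcr, Cyc1, Cycs, Cox4 to Cox8 and Atp5 genes and the mitochondrially encoded mt-Nd, mt-Co, mt-Atp and mt-Cytb genes, without symbols ending in -ps or -ps and a number. The rule found 103 of the 55363 gene symbols, 90 nuclear and 13 mitochondrial, and 99 of them reached 1 FPKM in at least 1 library. FPKM counts fragments per kilobase of gene, relative to all mapped fragments. Whole uterus was collected on gestational day 4 from mice that were 6 to 8 weeks old when mated with fertile males. Mettl14 f/f is the control genotype, in which the usual notation stands for floxed alleles, and Mettl14 d/d is the genotype in which d stands for deleted alleles. There was 1 library per genotype, so no difference has a replicate error or a test, and "higher" and "lower" compare the libraries and not the genotypes. The sources used here do not say what drives the deletion, or how many animals each library holds.

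The Mettl14 protein works with Mettl3 to write N6-methyladenosine on RNA. Oxidative phosphorylation passes electrons from NADH through complex I, or from succinate through complex II, to coenzyme Q, complex III, cytochrome c and complex IV, where oxygen is reduced to water. Complexes I, III and IV pump protons across the inner mitochondrial membrane, and complex V, the ATP synthase, uses the returning protons to make ATP. Complex II is wholly nuclear encoded, whereas the other complexes combine nuclear subunits with subunits that the mitochondrion transcribes from its own genome. In the uterus this pathway serves contractile muscle, secretory epithelium and the stroma that prepares for implantation.

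As a check of the labels, Mettl14 was at 13.6 FPKM in f/f against 3.21 in d/d, 4.25-fold lower. Depth, inferred from the steps between low values, was about 18200000 fragments in f/f against 21400000 in d/d. The 6 uterus markers Hoxa10, Hoxa11, Esr1, Pgr, Wnt7a and Emx2 were all measured in both libraries, although Hoxa10 (357 and 63.7 FPKM) and Hoxa11 (193 and 40.3) were 2-fold or more lower in d/d and the other 4 had ratios above 0. The libraries differed in their cell markers. The 9 epithelial markers summed to 295 FPKM in f/f against 2157 in d/d, and 10 stromal markers to 4768 and 3006. The 8 endothelial markers summed to 382 and 183. Of 12 fat-cell markers, the 10 past the filter summed to 26.2 and 147, with 8 ratios above 0 and 2 below. Among the 8, Cfd was at 0.0867 and 66.6 FPKM and Fabp4 at 2.67 and 28.9. The 2 below were Pck1, at 5.73 and 0.114, and Cd36, at 6.84 and 4.46. The part of these cell types in the results below was not tested, and in bulk tissue fewer cells of a type and less RNA per cell cannot be told apart.

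The respiratory chain genes were abundant and close to equal in both libraries. The median member past the filter stood at 193 FPKM in f/f against 202 FPKM in d/d, against 13.2 and 13.7 FPKM for the median of all 16263 genes past the filter. Of the 99 members, 2 were 2-fold or more higher in d/d, mt-Atp8 and Atp5l, where 10.2% of all genes were. None was 2-fold or more lower, where 8.28% of all genes were. In either direction 18.4% of all genes passed that size, and 13.5% of the 6483 genes at a mean of 20 FPKM or more. Ratios are given as log2 of (d/d FPKM + 1) over (f/f FPKM + 1), which understates changes of genes near 1 FPKM. The members' ratios had a median of 0.07 and a middle range, between the quartiles, of -0.17 to 0.36. Over all genes the median was -0.01 and the quartiles were -0.41 and 0.41. For genes at a mean of 20 FPKM or more the quartiles were -0.31 and 0.39. For the 92 members at that level they were -0.15 and 0.40, so only the lower side was narrower. The nearest members that missed the 2-fold size were Cox7b, at 0.94, and Cox8b, at -0.93.

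**Figure D1:**
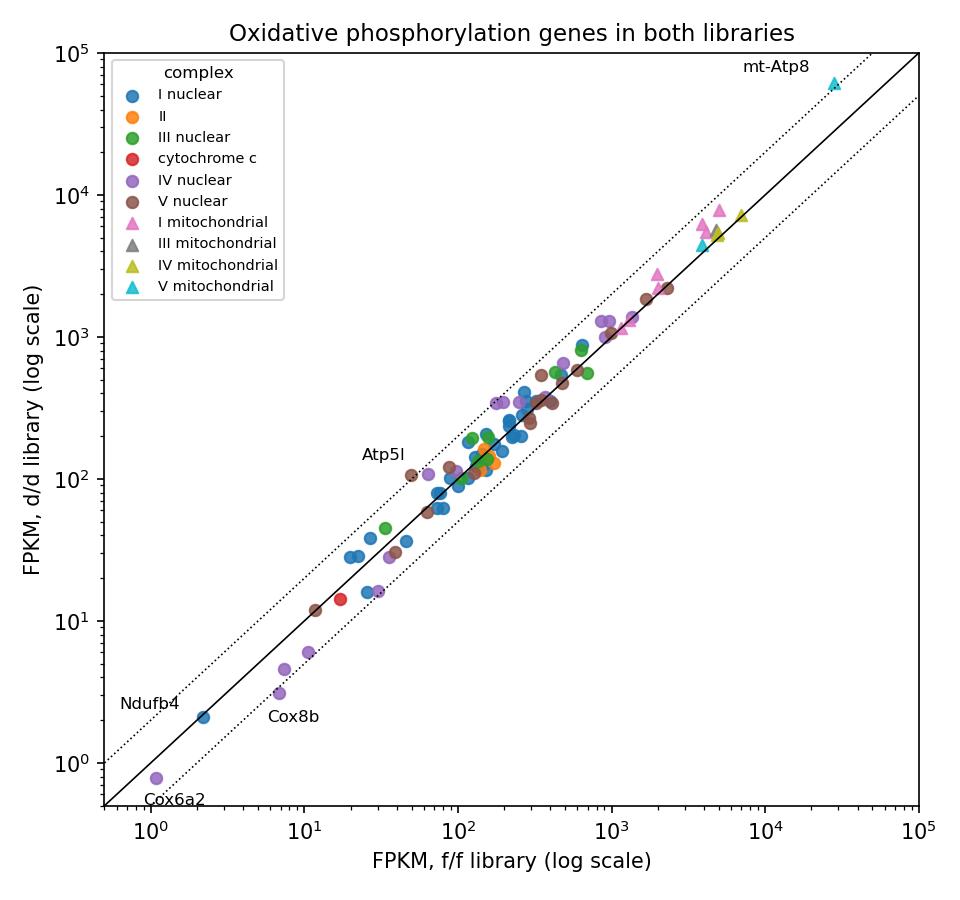
FPKM of the 99 members past the filter in the f/f library (x axis) and the d/d library (y axis), both on log scales, coloured by complex, with triangles for mitochondrially encoded genes, a solid line at equality and dotted lines at 2-fold. The members lie near the line of equality from about 1 FPKM (Cox6a2) to 61587 FPKM (mt-Atp8 in d/d), and Cox8b lies past the lower dotted line only because the plot adds no pseudocount.

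At a smaller size of 1.5-fold, 11 members were higher in d/d, where 18.8% of all genes were, and 4 were lower, where 17.8% were. Of the 6483 genes at a mean of 20 FPKM or more, 1117 were higher and 738 lower by that size. Of the 92 members at that level, the same 11 were higher and 2 were lower. The 11 were Cox5a, Cox7b, Cox7c, Atp5j, Atp5l, Ndufa11, Ndufv3, Uqcrfs1, mt-Nd1, mt-Nd3 and mt-Atp8. The 4 were Ndufa4l2, Cox6b2, Cox7a1 and Cox8b, all tissue-restricted isoforms. Across the 99 members, f/f and d/d FPKM had a Spearman rho of 0.98, against 0.88 across all genes past the filter. These values describe genes that share both libraries and are not independent replicates.

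Complex I oxidises NADH through a peripheral arm and pumps protons through a membrane arm. Its 38 nuclear members past the filter, of which 21 had ratios above 0 and 17 below, had a median ratio of 0.06. Over all genes 49.2% had ratios above 0. Upper-quartile scaling, which sets the median of all genes to -0.10, moved the complex I median to -0.04. The 3 most abundant nuclear members were Ndufa4, at 640 FPKM in f/f against 871 in d/d, Ndufa3, at 468 and 537, and Ndufa7, at 396 and 353. Ndufa4 carries a complex I name, although its protein is now known as a subunit of complex IV.

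The 7 nuclear core subunits, which carry the flavin and the iron-sulfur clusters, included 5 with ratios below 0. Ndufv2, an iron-sulfur protein of the NADH-oxidising tip, was at 153 FPKM in f/f against 116 in d/d. Ndufv1, which binds the flavin, was at 79.7 and 63.0 and Ndufs1 at 46.0 and 36.7. Ndufs3, which has an abundant pseudogene copy, was at 19.8 and 28.3. With upper-quartile scaling 6 of the 7 lay below 0, and with scaling to the sum of nuclear genes 4 did. No core subunit passed the 1.5-fold size, where 18.8% of all genes were higher and 17.8% lower.

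The 31 accessory members, which surround the core and include the pseudogene Ndufb4c, had a median ratio of 0.12, with 19 above 0. The ratios of 0.64 for Ndufv3 (117 FPKM in f/f, 182 in d/d) and 0.60 for Ndufa11 (269 and 408) were the highest of the nuclear complex I genes. The ratio of Ndufa4l2, an isoform of Ndufa4, was the lowest, at -0.64. No nuclear member of complex I reached the 2-fold size, where 18.4% of all genes did.

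Complex II, succinate dehydrogenase, also works in the tricarboxylic acid cycle. The flavoprotein gene Sdha was at 171 FPKM in f/f against 129 in d/d, and the iron-sulfur gene Sdhb at 139 and 116. The membrane anchors Sdhc and Sdhd were at 159 and 144 and at 148 and 163. The median ratio of the 4 genes was -0.20, with 3 of 4 below 0 in the deposited values and under both scalings tried. The 18 genes of the tricarboxylic acid cycle and pyruvate dehydrogenase had a median of 0.00. None passed the 2-fold size, where 18.4% of all genes did. The most abundant of the 18 were Mdh2, malate dehydrogenase, at 205 and 187 FPKM, and Idh3g, at 195 and 153.

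Complex III hands electrons from coenzyme Q to cytochrome c. Its 9 nuclear members had a median ratio of 0.34, with 6 above 0 (5 with upper-quartile scaling). The most abundant were the small subunit genes Uqcr10, at 630 FPKM in f/f against 816 in d/d, Uqcrh, the hinge protein, at 697 and 554, and Uqcrq, at 432 and 569. Uqcrfs1, the Rieske iron-sulfur protein, was at 124 and 194 FPKM, 1.56-fold higher in d/d. Uqcrb was at 33.5 and 45.5. The other catalytic gene, Cyc1 (cytochrome c1), was at 134 and 135, and the matrix-side genes Uqcrc1 and Uqcrc2 were at 155 and 138 and at 105 and 102. Cycs, the mobile electron carrier, was at 17.1 and 14.2.

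Complex IV, cytochrome c oxidase, has a mitochondrially encoded core and a shell of small nuclear subunits, several of which exist as a widely expressed and a tissue-restricted isoform. The 17 nuclear members past the filter split along that line. Without the restricted isoforms, 12 members remained with a median ratio of 0.44, and 11 of 12 lay above 0. With upper-quartile scaling the median was 0.34, with 9 of 12 above 0. Cox7b, a small membrane subunit, was at 178 FPKM in f/f against 341 in d/d, 1.92-fold higher. Cox5a, on the matrix side, was at 195 and 351, 1.80-fold higher. The most abundant genes were Cox6c, at 1351 and 1385 FPKM, Cox6a1, at 958 and 1289, and Cox8a, at 859 and 1286. Cox7a2l, which helps to join complexes III and IV, was at 249 and 349. Cox5b, at 35.6 and 28.1, was the exception below 0, with a ratio of -0.33 that turned to 0.09 when its copy Cox5b-ps was added by length. The 12 include Cox6c2 (97.0 and 114 FPKM), which GENCODE M21 types as a processed pseudogene and which is a copy of Cox6c.

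**Figure D2:**
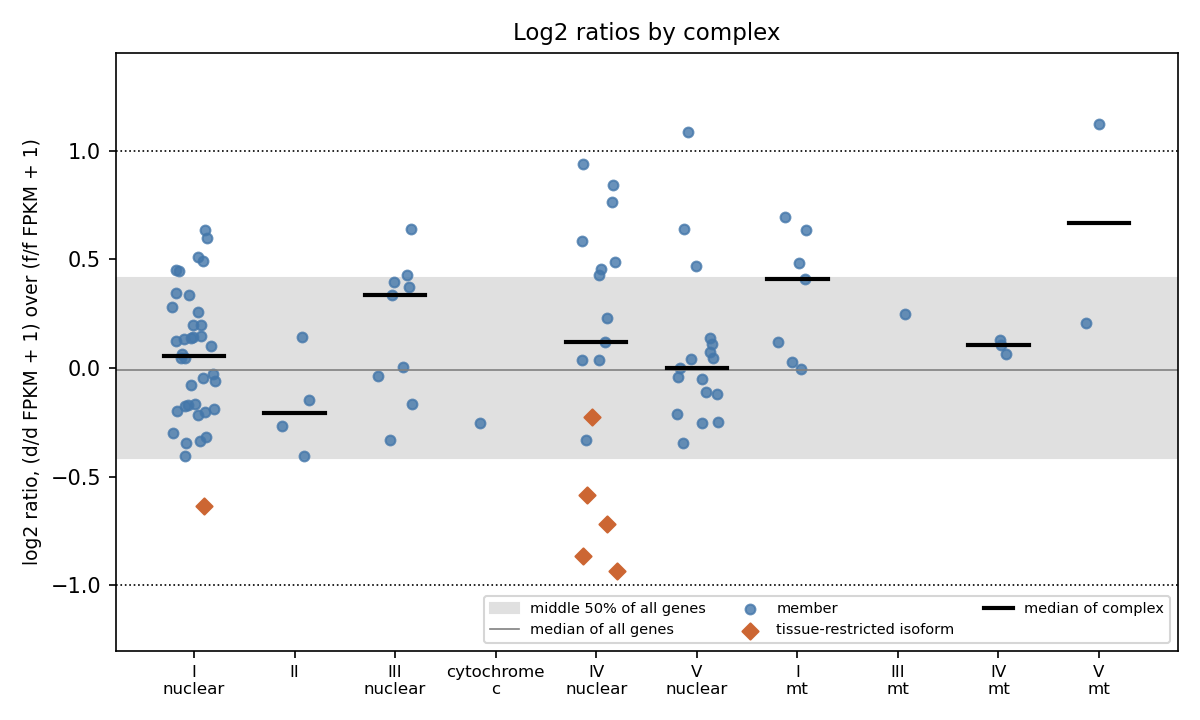
Log2 ratio of every member past the filter (y axis) by complex and genome of origin (x axis, mt for mitochondrially encoded), with orange diamonds for tissue-restricted isoforms, black bars for the median of each complex and a grey band for the quartiles of all genes. Complex IV is divided between restricted isoforms, all below 0, and the other members, of which 11 of 12 lie above 0, or 9 of 12 with upper-quartile scaling.

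Cox7c, the third gene of complex IV past 1.5-fold, shows a limit of these values. The gene (chr13:86044816-86046904, minus strand, GRCm38) was at 63.5 FPKM in f/f against 109 in d/d. A processed pseudogene, an intronless copy of its mRNA named Gm12338, has the same 192 coding bases with no difference and was listed at 3337 and 9260 FPKM. A further copy, Cox7c-ps1 (chr17:25901856-25902227), was at 21.3 and 35.2 FPKM. Its 192 aligned bases are set under the coding sequence of Cox7c, with capitals for the 2 bases that differ. They show how few positions within the coding bases could tell a fragment of either gene apart. The rest of each transcript was not compared.
Cox7c: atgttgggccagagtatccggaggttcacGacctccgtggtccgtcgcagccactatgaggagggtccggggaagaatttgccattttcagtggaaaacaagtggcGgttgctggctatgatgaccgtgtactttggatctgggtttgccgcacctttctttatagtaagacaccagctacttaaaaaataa
Cox7c-ps1: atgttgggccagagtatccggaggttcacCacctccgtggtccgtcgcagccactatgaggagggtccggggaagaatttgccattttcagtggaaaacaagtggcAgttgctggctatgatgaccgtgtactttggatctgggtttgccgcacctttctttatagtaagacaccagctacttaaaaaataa

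Complex V consists of a catalytic head, a central and a peripheral stalk, and a membrane part with a ring of c subunits. Its 17 nuclear members had a median ratio of -0.00, with 8 above 0, and the median shifted to 0.05 with scaling to the sum of nuclear genes and to -0.10 with upper-quartile scaling. The catalytic beta subunit gene Atp5b was the most abundant nuclear member of the whole chain in both libraries, at 2307 FPKM in f/f against 2226 in d/d. Atp5e, the epsilon subunit of the central stalk, was at 1677 and 1848, and Atp5mpl, a small membrane proteolipid, at 992 and 1072. The alpha subunit gene Atp5a1 was at 408 and 342. In the peripheral stalk, Atp5j was at 348 and 543, 1.56-fold higher in d/d. Atp5h was at 39.1 and 30.6, and its ratio of -0.34 turned to 0.02 with its copies added by length. The 3 c-ring genes encode the same mature protein; Atp5g1 was at 127 and 110, Atp5g2 at 11.7 and 12.0 and Atp5g3 at 600.0 and 583.

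Atp5l, subunit g of the membrane part, was the only nuclear member past the 2-fold size, at 49.8 FPKM in f/f against 107 in d/d, with a ratio of 1.09. It lies at chr9:44912557-44920742 on the minus strand of GRCm38. Of its 14 near-identical copies, Gm10221 is identical over 309 of the 312 coding bases and was at 859 and 1326 FPKM. Atp5l-ps1 (chr7:62476306-62476617) was at 5.79 and 18.8 FPKM. The first 300 coding bases of Atp5l and of this copy are shown because the called gene and the copy differ there at 5 bases, given in capitals. With the copies added to Atp5l, each weighted by its length, the ratio was 0.69 and no longer 2-fold.
Atp5l: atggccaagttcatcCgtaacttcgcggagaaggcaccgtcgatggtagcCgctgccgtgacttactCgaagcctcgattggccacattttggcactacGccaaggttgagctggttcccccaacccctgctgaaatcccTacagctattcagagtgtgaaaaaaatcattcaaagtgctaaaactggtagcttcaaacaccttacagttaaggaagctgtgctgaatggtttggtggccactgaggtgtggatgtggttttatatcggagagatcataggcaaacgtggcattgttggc
Atp5l-ps1: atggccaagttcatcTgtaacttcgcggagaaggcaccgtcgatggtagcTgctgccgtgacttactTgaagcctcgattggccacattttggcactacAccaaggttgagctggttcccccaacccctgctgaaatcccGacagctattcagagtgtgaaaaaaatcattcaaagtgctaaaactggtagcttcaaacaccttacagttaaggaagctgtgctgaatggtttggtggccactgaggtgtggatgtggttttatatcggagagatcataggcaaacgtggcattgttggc

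The 13 mitochondrially encoded genes were among the most abundant members, from mt-Nd6, at 1153 FPKM in d/d, upward. Of them, 12 had ratios above 0, with a median of 0.21. With upper-quartile scaling 10 of 13 did, with a median of 0.11, and with scaling to the sum of nuclear genes all 13 did. The highest, mt-Atp8, encodes a short membrane subunit of complex V and was listed at 28281 FPKM in f/f against 61587 in d/d, with a ratio of 1.12. Its gene is 204 nt long (chrM:7766-7969, plus strand, GRCm38), and its last 43 bases, in capitals, are also the start of mt-Atp6, so a fragment there belongs to both genes.
mt-Atp8: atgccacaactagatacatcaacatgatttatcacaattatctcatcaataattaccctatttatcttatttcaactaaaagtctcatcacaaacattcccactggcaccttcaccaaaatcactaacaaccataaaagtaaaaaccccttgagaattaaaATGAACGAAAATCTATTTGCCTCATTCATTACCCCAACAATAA

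The neighbouring mt-Atp6, which forms the proton path of complex V and shares a transcript with mt-Atp8, was at 3862 and 4465 FPKM, a ratio of 0.21. FPKM of models near the length of a fragment rests on a strongly corrected length. Among the 82 gene models of at most 250 nt past the filter, mt-Atp8 included, 33 (40.2%) were 2-fold higher in d/d and 19 were 2-fold lower. Over all genes 10.2% were higher and 8.28% lower. Of the 57 such short models at a mean of 20 FPKM or more, 25 were higher and 5 lower, with a median ratio of 0.74. With ratios centred on the median of genes of similar length, mt-Atp8 was not 2-fold higher. The part of gene length in the mt-Atp8 difference was not tested.

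Complex I genes of the mitochondrion spanned the widest range of ratios of the remaining genes. The membrane-arm subunit gene mt-Nd1 was at 3867 FPKM in f/f against 6258 in d/d, with a ratio of 0.69, and mt-Nd3 at 5012 and 7783, a ratio of 0.63. Then came mt-Nd2, at 1985 and 2776, and mt-Nd4l, at 4109 and 5468. The values of mt-Nd4 were 2023 and 2197, those of mt-Nd5 1292 and 1316, and those of mt-Nd6, the only member on the other strand, 1156 and 1153. The 7 genes had a median ratio of 0.41. For complex III, mt-Cytb was at 4763 and 5661, a ratio of 0.25. The catalytic core genes of complex IV were nearly level, with mt-Co1 at 6926 and 7253, mt-Co2 at 4971 and 5433 and mt-Co3 at 4871 and 5249, ratios of 0.07, 0.13 and 0.11.

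**Figure D3:**
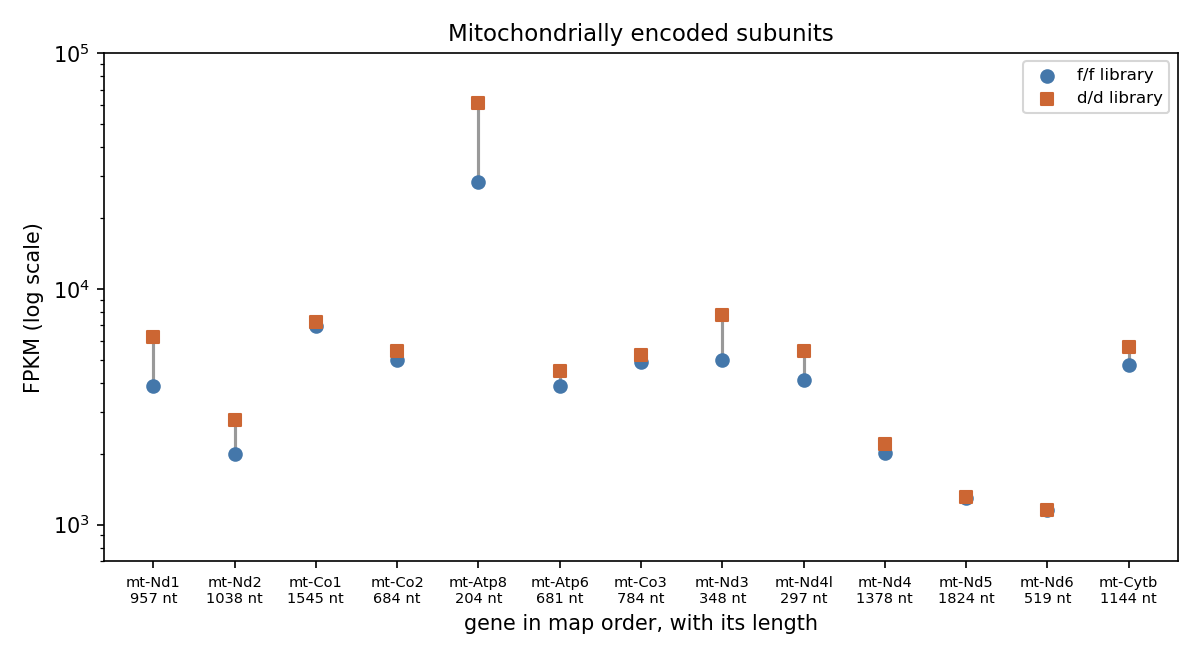
FPKM on a log scale (y axis) of the 13 mitochondrially encoded genes in map order with their lengths (x axis), circles for the f/f library and squares for the d/d library. The gap is widest at mt-Atp8, at 204 nt the shortest gene, followed by mt-Nd1 and mt-Nd3, and mt-Nd6 is level.

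Per summed FPKM, the mitochondrial genes took 5.71% of the f/f library and 9.07% of the d/d library. Without mt-Atp8 the shares were 3.50% and 4.28%, and mt-Atp8 alone took 2.21% and 4.79%. Weighted by gene length, which comes nearer to a share of fragments, all 13 mitochondrial genes took 2.35% and 2.95%. Weighted in this way without mt-Atp8, the shares were 2.07% and 2.35%. The nuclear members took 1.87% and 2.07% of summed FPKM. The mitochondrial rRNAs mt-Rnr1 and mt-Rnr2, transcribed from the same genome, were at 233 and 272 FPKM and at 172 and 177. All 22 mitochondrial tRNA genes were listed at 0 in both libraries. Over the 13 genes the ratio and gene length had a Spearman rho of -0.48, a description of genes read from the same libraries. For the 86 nuclear members, rho with the length of the coding transcript was -0.30, against 0.03 over all genes with such a transcript. Their rho with mean FPKM was 0.35.

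Tissue-restricted isoforms gave the 5 lowest ratios of all members. All 6 that passed the filter had ratios below 0, with a median of -0.68, in the deposited values and under both scalings. Their 7 widely expressed partners, counting Cox7b, whose restricted form was not detected, all had ratios above 0, with a median of 0.45. Upper-quartile scaling left 6 of 7 partners above 0, the exception being Cox7a2. No isoform passed the 2-fold size with the pseudocount of 1 FPKM, where 18.4% of all genes did. Cox8b did so with a pseudocount of 0.1 FPKM, with upper-quartile scaling and with ratios centred by gene length.

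Cox8b, the heart and skeletal muscle form of Cox8a, was at 6.88 FPKM in f/f against 3.13 in d/d, which is 0.801% and 0.243% of the Cox8a level. With the full transcript length and the inferred depth, that is about 45 and 24 fragments, and fewer with a corrected, shorter length. Counting error is therefore wide. Cox7a1, the muscle form of Cox7a2, was at 10.6 and 6.06 FPKM, or 2.87% and 1.60% of its partner, which was at 369 and 379. Cox6a2, the muscle form of Cox6a1, was at 1.08 and 0.782 FPKM, by the same estimate about 13 and 11 fragments, too few to tell the libraries apart. Cox6b2, best known from testis, was at 30.2 and 16.1, or 6.28% and 2.44% of Cox6b1 (482 and 661 FPKM). Cox4i2, an isoform of Cox4i1 (913 and 993 FPKM) linked to hypoxia, was at 7.35 and 4.58, or 0.806% and 0.461%. Ndufa4l2, a hypoxia-induced isoform, was at 25.6 and 16.1, or 4.00% and 1.85% of Ndufa4. Cox7b2 and Cox8c, both known from testis, were listed at 0 in both libraries.

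**Figure D4:**
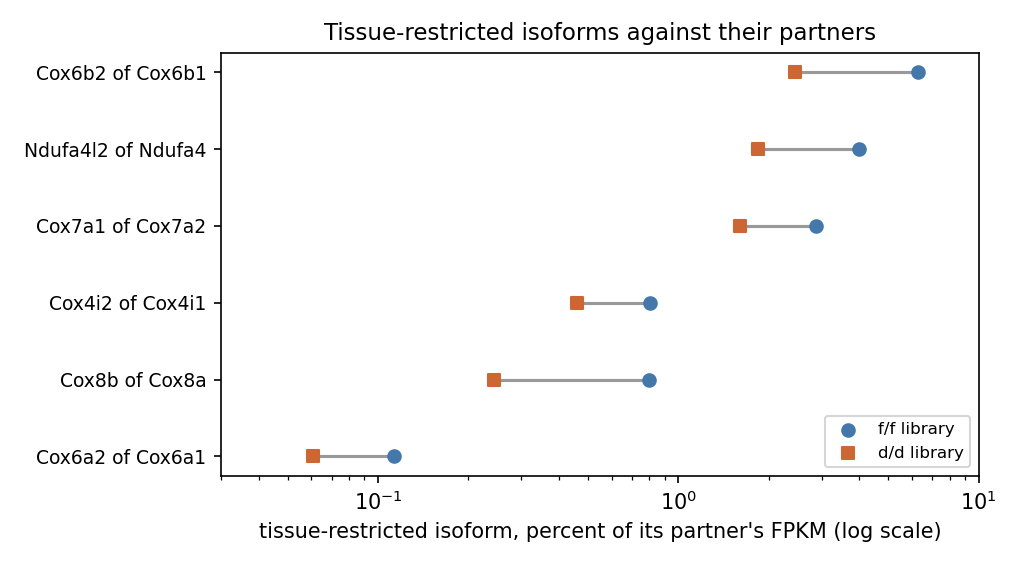
FPKM of each tissue-restricted isoform as a percent of its widely expressed partner (x axis, log scale) in the f/f library (circles) and the d/d library (squares), 1 row per pair. Each of the 6 shares is lower in d/d, from 6.28% to 2.44% for Cox6b2 at the top and from 0.113% to 0.0607% for Cox6a2 at the bottom.

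Most markers of muscle and vessel wall were lower in d/d, and so were those of stroma and endothelium. The 10 stromal markers had a median ratio of -1.38, with 6 lower by 2-fold. The 8 endothelial markers had a median of -1.03, with 4 lower. In contrast, all 9 epithelial markers and 8 of the 10 fat-cell markers past the filter lay above 0. Over all genes 8.28% were 2-fold lower. The 9 smooth muscle markers summed to 4954 FPKM in f/f against 3240 in d/d, with 3 lower by 2-fold and a median ratio of -0.81. The 7 pericyte markers summed to 285 and 110, with 2 lower and a median of -0.91. Lmod1 of the smooth muscle list and Kcnj8 of the pericyte list had ratios above 0, at 0.24 and 0.15. Of 11 skeletal muscle markers, 5 passed the filter and all 5 were 2-fold lower, led by Acta1, at 115 and 13.2 FPKM, and Tnni2, at 92.7 and 10.4. The skeletal myosins Myh1, Myh2 and Myh4 were listed at 0 in both. Of 7 brown fat markers, Dio2 (17.9 and 93.2) and Kcnk3 (1.57 and 0.734) passed the filter, and Ucp1 was at 0.0748 and 0. Of 9 testis and sperm markers, 8 were listed at 0 in both. The part of these cells in the isoform ratios was not tested.

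The starts of the isoform genes differ in CpG content. RefSeq on GRCm38.p6 gave promoter windows, from 250 bases before to 50 after the start, for 3 restricted and 6 widely expressed isoforms. The restricted ones held 2 (Cox8b), 7 (Cox7a1) and 10 (Cox6b2) CpG, whereas the others held a median of 18, from 5 (Cox7b) to 32. The median was 19 over 68 nuclear members past the filter and 20 over 11251 genes. The 250 bases before the start are printed, with CpG in capitals, for both muscle-form pairs that had a window for each partner. They are read in the direction of the gene, at chr19:7217617-7217866 (minus) for Cox8a, chr7:140900447-140900696 (minus) for Cox8b, chr9:79759854-79760103 (minus) for Cox7a2 and chr7:30183921-30184170 (plus) for Cox7a1.
Cox8a: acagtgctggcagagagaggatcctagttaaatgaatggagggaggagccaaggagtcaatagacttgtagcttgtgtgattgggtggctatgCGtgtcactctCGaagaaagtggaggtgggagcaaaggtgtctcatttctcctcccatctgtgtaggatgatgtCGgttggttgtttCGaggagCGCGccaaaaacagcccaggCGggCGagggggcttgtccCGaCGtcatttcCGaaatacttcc
Cox8b: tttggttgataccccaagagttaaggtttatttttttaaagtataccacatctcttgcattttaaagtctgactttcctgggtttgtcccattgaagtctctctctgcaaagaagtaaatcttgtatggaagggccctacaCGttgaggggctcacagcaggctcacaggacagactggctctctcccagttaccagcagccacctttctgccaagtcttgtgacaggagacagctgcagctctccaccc
Cox7a2: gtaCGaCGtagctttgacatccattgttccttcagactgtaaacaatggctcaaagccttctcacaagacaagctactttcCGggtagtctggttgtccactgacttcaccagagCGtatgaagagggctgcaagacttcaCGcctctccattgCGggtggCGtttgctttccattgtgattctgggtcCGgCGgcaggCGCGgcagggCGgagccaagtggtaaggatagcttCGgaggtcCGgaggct
Cox7a1: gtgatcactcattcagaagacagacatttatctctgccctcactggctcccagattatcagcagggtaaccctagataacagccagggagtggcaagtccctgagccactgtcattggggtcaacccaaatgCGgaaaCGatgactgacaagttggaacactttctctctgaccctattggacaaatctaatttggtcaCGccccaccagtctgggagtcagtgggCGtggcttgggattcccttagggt

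These windows hold 11 CpG for Cox8a against 1 for Cox8b, and 14 for Cox7a2 against 4 for Cox7a1. Letters of factors known to act on respiratory genes were searched on both strands of the 300-base windows of 69 nuclear members. The NRF1 letters GCGCANGCG were in 21 of 69 (30.4%), against 14.0% of the windows of genes past the filter and 7.03% of all 27025 windows. The ETS letters CCGGAAG, bound by GABP, were in 24.6%, against 18.7% and 9.93%. The YY1 letters AAGATGGCG were in 10.1%, against 3.24% and 1.64%. At least 1 of the 3 was in 53.6% of member windows and 31.4% of windows of genes past the filter. Members with the NRF1 letters had a median ratio of -0.04 and those without 0.07. For the ETS letters the medians were 0.14 and 0.04, and for the YY1 letters 0.05 and 0.05. A match of letters is not a binding site.

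For some members, most of the listed signal lay in near-identical copies. A search of 87 member coding sequences found 92 copies of 35 members, with at least 90% identity over at least 50% of the coding sequence. Of these, 89 are typed as pseudogenes in GENCODE M21 and 3 as protein coding: Cox5b-ps, Gm10053 (a copy of Cycs, at 148 and 126 FPKM) and Gm5426 (a copy of Atp5l, listed at 0). Of the copies, 60 were listed at 0 in both libraries and 25, of 18 members, reached 5 FPKM. For 15 members the copies summed to more FPKM than the member in both libraries. They were Ndufa12, Ndufb4, Ndufs3, Ndufs5, Uqcr11, Uqcrb, Cycs, Cox5b, Cox7c, Atp5g1, Atp5g2, Atp5h, Atp5l, Atp5md and Atp5pb. Their values are uncertain, because the counting decides which of the near-identical genes receives a fragment. Ndufb4, an accessory subunit of complex I, was at 2.20 FPKM in f/f against 2.09 in d/d. Its copy Ndufb4c, identical in 390 coding bases and itself a member by symbol, was at 230 and 204. Cox5b stood at 35.6 and 28.1 beside 396 and 443 for Cox5b-ps, and Ndufa12 at 26.6 and 38.3 beside 162 and 235 for Ndufa12-ps. Atp5g2 stood at 11.7 and 12.0 beside 618 and 624 for Gm10175.

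The 3 copies with the shortest models among these 25, Gm16418, Gm14539 and Gm12338, were 2-fold or more higher in d/d, as were the longer Atp5l-ps1 (312 nt) and Gm15694, a copy of Ndufa7 with 283 nt (0 and 5.06 FPKM). Gm14539, a copy of Atp5md with 174 nt, was at 2388 FPKM in f/f against 7991 in d/d, whereas Atp5md, a small membrane subunit of complex V, was at 87.9 and 122. Gm16418, a copy of Uqcr11 with 171 nt, was at 2879 and 7036, whereas Uqcr11 was at 156 and 197. With copies added to their members by length, 4 members were 2-fold higher in d/d, namely Atp5md, Cox7c, Uqcr11 and mt-Atp8, and none was lower. Without copies, Atp5md, Cox7c and Uqcr11 had ratios of 0.47, 0.77 and 0.34. Their abundant copies are the 3 shortest models, and of all gene models of at most 250 nt 40.2% were 2-fold higher in d/d. The part of model length in these 3 calls was not tested. With copies added, the median of the 86 nuclear members was 0.05, and it was 0.05 for the 68 with no copy at 5 FPKM or more.

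**Figure D5:**
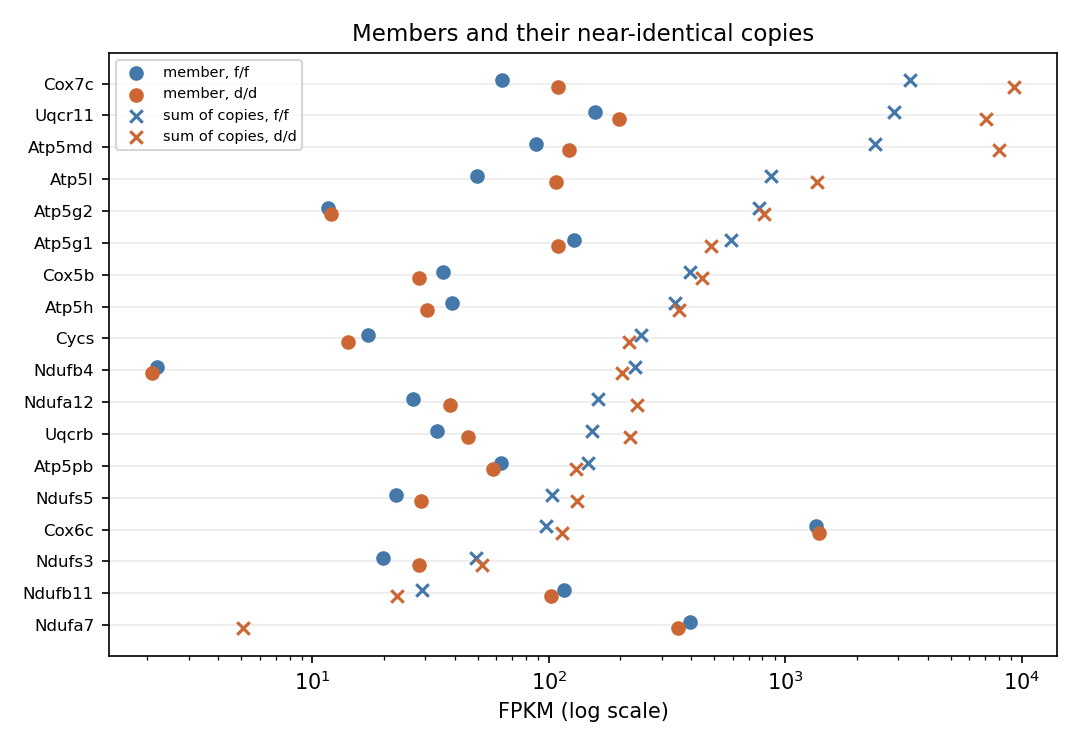
FPKM on a log scale (x axis) of the 18 members with a copy at 5 FPKM or more (dots) and of the sum of their near-identical copies (crosses), most of them typed as pseudogenes, blue for the f/f library and orange for the d/d library, 1 row per member. The copies exceed the member in both libraries in 15 rows, all but Cox6c, Ndufb11 and Ndufa7. The copies of Ndufa7 are listed at 0 in f/f and have no cross there.

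Mettl14 acts in a complex that methylates adenosine in contexts such as GGACT. In their longest coding transcript, 33.3% of 84 nuclear members had no GGACT, against 8.01% of all genes. Among coding transcripts under 1000 nt, 40.8% had none. Member transcripts were short, with a median of 870 nt against 3076 nt, and held 1.03 GGACT per kilobase against 1.10 over all genes. Over members without the letters the median ratio was 0.08, and over those with them 0.02. Over all genes these medians were -0.07 and -0.01. Methylation itself was not measured in these libraries.

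The genes that build and regulate the chain were counted from lists. Of 53 assembly factors, 3 were 2-fold higher, where 10.2% of all genes were, and 1 was lower, where 8.28% were. Their median ratio was 0.12. Ndufaf4, a complex I assembly factor, was at 12.0 FPKM in f/f against 33.2 in d/d. For complex IV assembly, Coa7 was at 13.9 and 38.6 and Pet117 at 4.21 and 14.6. Lyrm7, which helps to assemble the Rieske protein Uqcrfs1 into complex III, was at 7.07 and 1.13 FPKM, the only lower one. The 24 complex IV factors had a median ratio of 0.33, with 18 above 0. Subunits that the symbol rule misses, Ndufab1 (188 and 200 FPKM), Ndufb1-ps (76.9 and 84.5) and the ATP synthase inhibitor Atpif1 (514 and 528), differed little.

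Of 29 genes that maintain and express mitochondrial DNA, none was 2-fold higher and 1 was lower, Mterf2, at 10.8 and 3.27 FPKM. Their median was -0.16, with 8 above 0. Tfam, which packages mitochondrial DNA, was at 50.3 and 41.6, and the polymerase gene Polrmt at 13.1 and 13.7. Of 78 mitochondrial ribosomal genes, 4 were 2-fold higher and none lower, with a median of 0.06. The 4 were Mrpl43 (36.1 and 124), Mrps34 (90.7 and 236), Mrpl46 (28.0 and 80.2) and Mrps23 (89.0 and 188). For both lists the shares over all genes were 10.2% higher and 8.28% lower.

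Of 21 regulators of respiratory genes, 18 passed the filter, with 2 higher, 1 lower and a median of 0.07. Over all genes 10.2% were 2-fold higher and 8.28% lower. The corepressor gene Nrip1 was at 10.9 FPKM in f/f against 45.1 in d/d, and the coactivator gene Ppargc1a at 0.525 and 2.96. Myc was at 77.8 and 20.6. Nrf1, Gabpa and Yy1 were at 23.1 and 24.0, at 26.9 and 24.7 and at 30.6 and 32.4. Among 18 electron carriers and coenzyme Q genes, Gpd2, which feeds cytosolic reducing power to coenzyme Q, was at 4.83 and 13.5, and the median was -0.03. Among 9 cristae and fusion genes, Mfn1, an outer membrane fusion protein, was at 64.9 and 24.0, with a median of -0.04. No gene of 16 membrane carriers and import proteins passed the 2-fold size, and their median was -0.05. Slc25a3, the phosphate carrier, was at 428 and 458, and Slc25a4, an ATP and ADP carrier, at 318 and 254. Of the uncoupling proteins only Ucp2 passed the filter, at 241 and 416 FPKM.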

How the data were processed

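RNA-seq of total RNA from whole uterus gave 1 Mettl14 f/f and 1 Mettl14 d/d library. The authors deposited FPKM per gene, and the submitters' processing notes name HISAT2 2.2.1, Cufflinks 2.2.1 and the mouse build mm10. The sources used here give neither annotation release nor strandedness, so antisense and overlapping genes may share signal. Rows sharing a symbol were summed. Log2 ratios used a pseudocount of 1 FPKM, and genes that reached 1 FPKM in either library were counted. A gene was called at 2-fold. Depth was inferred by fitting FPKM times length to whole fragments: 79.0% of 353 low values in f/f and 76.0% of 408 in d/d lay within 0.1 of a whole number, and the depths are approximate. Gene types, lengths and coding sequences came from GENCODE M21, which held 55137 of the 55483 row IDs. Copies were sought with blastn 2.17.0, and the scripts (Python 3.11.15, pandas 2.3.3) were tested on simulated data. The copy search and the CpG and GGACT counts were added after seeing the data. Members, gene lists and tests were chosen with earlier results of these data known. Named genes were each isoform pair, every mitochondrial gene, every gene past 2-fold, the 3 most abundant and the 2 highest and 2 lowest ratios of each complex. From other lists they were up to 4 genes past 2-fold or, with none, the 2 most abundant. Genes named beyond this rule were chosen after their values were seen. Of the 103 members, 4 were listed at 0 in both libraries (Cox7b2, Cox8c, Ndufa11b, Ndufs6b), and 13 -ps symbols were left out. Values of some genes are not reported here.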

Additional observations from a re-analysis of the deposited data

How the results depend on the processing

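With 1 library per genotype no replicate could be left out, and no paired analysis was possible because each genotype has 1 library. The count of 2 members called higher and 0 called lower in d/d held with a pseudocount of 5 FPKM, no filter, a filter of 5 FPKM, scaling to the sum of nuclear genes and keeping the most abundant row per symbol. With a pseudocount of 0.1 FPKM, 1 member was lower, Cox8b. Upper-quartile scaling left 1 higher, mt-Atp8, and 1 lower, Cox8b, and turned the nuclear median from 0.043 to -0.053. It moved the median of all genes from -0.01 to -0.10. Centring by length class left 1 higher, Atp5l, and 1 lower, Cox8b. The 1.5-fold rule gave 11 higher and 4 lower by its construction. Adding near-identical copies, chosen after seeing the data, gave 4 higher, of which Atp5md, Cox7c and Uqcr11 were called through very short copies. It turned the ratios of Cox5b and Atp5h from below to above 0. The mitochondrial share of summed FPKM was 3.36 percentage points larger in d/d. It was 0.781 points larger without mt-Atp8 and 0.597 points larger when weighted by length with mt-Atp8 included, both chosen after seeing the data. The median of mitochondrial genes remained above 0 under each setting run for it, from 0.11 to 0.26. FPKM carries no counts, so members near 1 FPKM, such as Cox6a2, are the least precise. Except for the 1.5-fold rule and the left-out gene, the cause of these shifts was not tested.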
